A study of Homo sapiens with 14 samples.

Results

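The 9 kinases described here drive and time cell division. They were taken as all transcripts whose locus held a fixed hg19 position at PLK1, PLK4, AURKA, AURKB, CDK1, BUB1, BUB1B, TTK or NEK2, together with 1 anchor transcript for each kinase. This gave 131 of the 204092 transcripts in the files, at 9 of 35671 loci. The study compared SETD2 knockout HEK293T cells (KO cells), labelled SETD2 Knockout, with wild type HEK293T cells (WT cells). Each group had 3 libraries of total RNA depleted of ribosomal RNA, though the label of 1 WT library carries a ChIP protocol. HEK293T is a human embryonic kidney line that carries the SV40 large T antigen, so both groups share that oncogene, and the labels name no treatment, clone or clone number. No gene symbol stands beside any transcript in the files, so a kinase name here marks a locus by its position. Neither SETD2 itself nor markers of the cell type were looked up by position here, so they were not checked. SETD2 places trimethylation on lysine 36 of histone H3, and the series title names PLK1 as a candidate target in renal carcinoma lacking SETD2.

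PLK1, a Polo-like kinase, promotes mitotic entry, centrosome maturation and chromosome segregation, and PLK4 starts centriole duplication. CDK1 is the cyclin-dependent kinase that drives entry into mitosis, AURKA acts at spindle poles, and AURKB is the kinase of the chromosomal passenger complex. BUB1, BUB1B (the BUBR1 protein) and TTK (the MPS1 kinase) belong to the spindle assembly checkpoint, and NEK2 separates centrosomes. In dividing cells such genes are mostly transcribed late in the cycle, in part through a promoter element called the cell cycle genes homology region, CHR, which is bound by MuvB complexes and often lies downstream of CCAAT boxes bound by NF-Y.

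Promoter windows are shown first for the kinases with the highest locus folds below (BUB1B, CDK1, PLK1 and BUB1) and for AURKB, whose fold was the lowest. Each runs from 250 bases before to 50 bases after a RefSeq start, 5′ to 3′ along the gene, and comes from the RefSeq table for build GRCh38.p14, not the hg19 build of the expression files. Capitals mark TTTGAA or TTCGAA, the CHR letters searched, and CCAAT, each on either strand; no marked match overlapped another.
BUB1B, chr15:40160819-40161118, plus strand: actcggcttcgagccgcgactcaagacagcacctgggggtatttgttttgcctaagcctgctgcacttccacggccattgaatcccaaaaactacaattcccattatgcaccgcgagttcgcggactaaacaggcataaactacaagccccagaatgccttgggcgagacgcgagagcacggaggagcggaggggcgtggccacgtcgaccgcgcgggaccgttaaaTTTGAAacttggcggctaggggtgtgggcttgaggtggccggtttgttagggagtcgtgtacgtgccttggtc
CDK1, chr10:60778228-60778527, plus strand: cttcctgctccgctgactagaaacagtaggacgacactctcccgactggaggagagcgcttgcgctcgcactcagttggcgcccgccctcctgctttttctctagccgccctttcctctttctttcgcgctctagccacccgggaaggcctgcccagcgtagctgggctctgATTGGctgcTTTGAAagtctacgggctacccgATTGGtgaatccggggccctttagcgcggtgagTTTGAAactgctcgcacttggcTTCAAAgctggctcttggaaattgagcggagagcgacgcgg
PLK1, chr16:23678639-23678938, plus strand: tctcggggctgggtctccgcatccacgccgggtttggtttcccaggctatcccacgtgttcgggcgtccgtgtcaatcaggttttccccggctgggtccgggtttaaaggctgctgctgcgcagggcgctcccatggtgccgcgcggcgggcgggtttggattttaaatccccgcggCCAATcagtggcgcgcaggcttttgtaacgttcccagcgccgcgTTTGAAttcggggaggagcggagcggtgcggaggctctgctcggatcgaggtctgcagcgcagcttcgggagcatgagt
BUB1, chr2:110678014-110678313, minus strand: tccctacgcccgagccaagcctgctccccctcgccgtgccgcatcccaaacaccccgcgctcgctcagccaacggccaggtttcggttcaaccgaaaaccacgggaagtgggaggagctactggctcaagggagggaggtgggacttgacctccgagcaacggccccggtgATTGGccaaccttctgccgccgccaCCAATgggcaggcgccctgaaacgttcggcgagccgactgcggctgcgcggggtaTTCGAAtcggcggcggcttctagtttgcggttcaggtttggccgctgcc
AURKB, chr17:8210176-8210475, minus strand: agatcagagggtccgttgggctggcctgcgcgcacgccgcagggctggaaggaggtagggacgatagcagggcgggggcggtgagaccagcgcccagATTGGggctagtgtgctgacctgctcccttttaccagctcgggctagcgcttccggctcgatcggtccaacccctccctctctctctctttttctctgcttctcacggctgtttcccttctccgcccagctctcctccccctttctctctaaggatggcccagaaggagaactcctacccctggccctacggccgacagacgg

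In the PLK1 window the CHR letters began at position -29 from the start, with CCAAT letters at position -73. The BUB1B window had its CHR match at position -23 and no CCAAT match. In the BUB1 window the CHR match lay at position 1, with CCAAT letters at positions -79 and -54. The CDK1 window, which belongs to the second of the CDK1 starts listed, held 3 CHR matches and 2 CCAAT matches. The window of the first CDK1 start, not shown, held CHR letters at position -161, upstream of CCAAT letters at position -150. The AURKB window held a CCAAT match and no CHR match. Among the kinases not shown, NEK2 also had no CHR match, and PLK4 had one only in its first window, at position 38. RefSeq windows were found for 7 of the 9 kinases, with 11 starts among them; AURKA and TTK had no entry. Of these 11 windows 6 held the CHR letters and 8 the CCAAT letters, while over all 35116 windows in the table the shares were 16.4% and 34.6%. The CDK1 windows overlap each other, as do the AURKB windows, and the 3 of PLK4 share a gene, so the 11 are not independent. These matches are letters in a window and not tested sites, and whether they go with the folds was not tested.

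The authors deposited 1 FPKM value (fragments scaled to transcript length and to all mapped fragments) per transcript and group, so there is no value for a single library, no spread between libraries, and an unknown depth. Errors below are the bounds deposited in the tracking table, for which the file states no confidence level. The knockout values of the 2 deposited tables differ: over 55 kinase transcripts of at least 1 FPKM in KO cells, the tracking value was 0.650 to 1.79 times that of the test table, against 0.974 to 0.980 times over 52 such transcripts in WT cells. In KO cells 18 of the 55 lay within 1% of 0.652, the ratio most frequent over all transcripts of at least 1 FPKM. Which of the 3 KO libraries entered each column is not stated in the sources used here, so a KO value may not average all 3. Values and folds come from the test table where no table is mentioned. Bounds belong to the tracking values throughout, so those printed beside test table values are not centred on them. Of the 131 transcripts 78 had been tested by the authors, 53 had not, and 65 reached 1 FPKM in a group.

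PLK1 was the highest of the 9 loci in KO cells and stood higher there than in WT cells at the level of the locus and of its anchor transcript. Its locus, chr16:23688977-23724821 on hg19 like all loci below, held 18 transcripts, whose FPKM summed to 225.9 in KO cells and 130.0 in WT cells, a 1.74-fold difference. The anchor ENST00000300093 stood at 117.7 FPKM in KO cells and 70.7 FPKM in WT cells (1.66-fold). Both groups gave it about the same part of the locus sum, 52.1% in KO cells and 54.4% in WT cells. In the tracking table the anchor stood at 131.9 FPKM in KO cells, with bounds of 81.9 and 181.9, and at 69.1 FPKM in WT cells, with bounds of 44.0 and 94.1. These intervals overlapped between 81.9 and 94.1 FPKM. In bulk RNA a larger share of cells in division and more RNA per cell cannot be told apart, here and for every kinase below.

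The PLK1 anchor had the lowest p-value of the 78 tested kinase transcripts, p = 0.00155, and did not pass adjustment (q = 0.314 in the authors' deposited table). In the authors' deposited table, 0.125% of all tested transcripts had a p-value at or below that of the PLK1 anchor and a higher value in KO cells. That p-value is the lowest of 78 and its direction was already seen, so this share does not measure how rare the anchor is. The 1.66-fold difference of the PLK1 anchor lay below every fold of the 154 transcripts with q under 0.05 in the authors' deposited table and values above 0 in both groups. Taken in either direction, their median fold was 2.97 and their smallest 1.70. That smallest fold is an observed value and not a bound set by the test. In the tracking table the PLK1 anchor stood 1.91-fold higher in KO cells. Of the other PLK1-locus transcripts, ENST00000564794 stood at 67.8 FPKM in KO cells and 33.1 FPKM in WT cells, ENST00000567897 at 18.6 FPKM in KO cells and 16.8 FPKM in WT cells, and ENST00000562407 at 16.9 FPKM in KO cells and 4.79 FPKM in WT cells. The lower bound of each of these 3 was 0 in both groups, and their q-values were 0.991 in the authors' deposited table. In the tracking table ENST00000567897 turned, with 12.2 FPKM in KO cells and 16.4 FPKM in WT cells. Without the anchor the locus still summed to 108.2 FPKM in KO cells and 59.3 FPKM in WT cells. The locus is 35.8 kb long, and RefSeq lists ERN2 as overlapping PLK1, so part of the sum may belong to that gene, which was not tested.

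**Figure D1:**
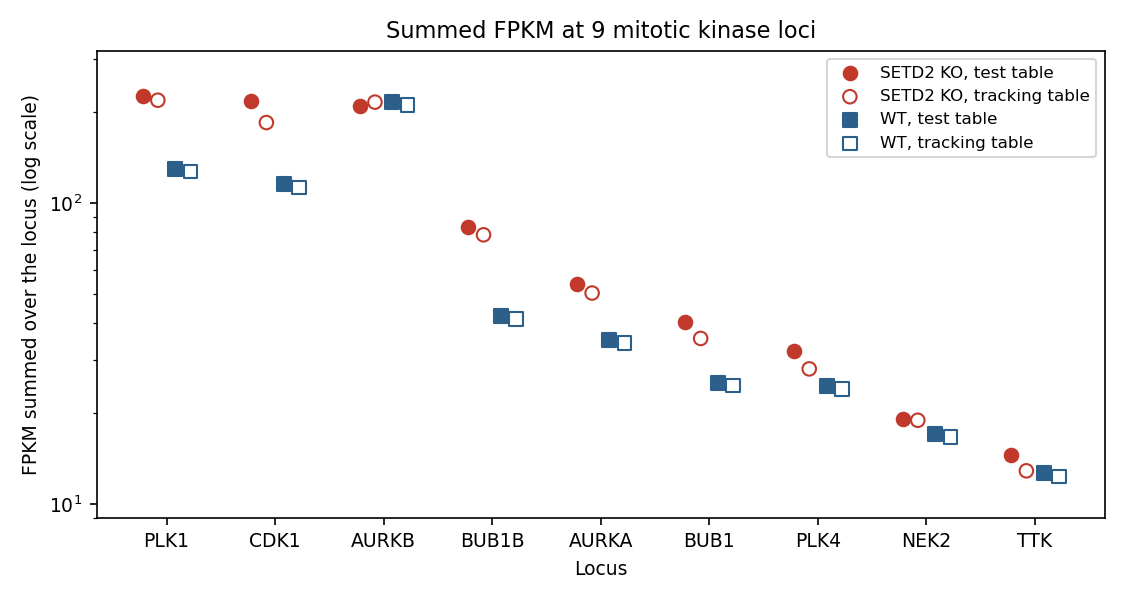
FPKM summed over all transcripts of each of the 9 kinase loci, on a log axis. Red circles are SETD2 knockout cells and blue squares wild type cells, filled for the test table and open for the tracking table; each symbol is 1 group value with no error. PLK1, CDK1 and BUB1B show the widest separation, and the symbols of AURKB lie close together between 209.1 and 216.7 FPKM.

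PLK4, the other Polo-like kinase, differed less. Its locus, chr4:128802016-128820350, had 12 transcripts that summed to 32.2 FPKM in KO cells and 24.7 FPKM in WT cells (1.31-fold). Its anchor ENST00000270861 was listed at 0 in KO cells and at 2.46e-05 FPKM in WT cells, so the signal of this locus lay in other transcripts. The highest of these, ENST00000510605, stood at 9.54 FPKM in KO cells and 8.01 FPKM in WT cells. ENST00000503914 stood at 4.85 FPKM in KO cells and 3.25 FPKM in WT cells, while ENST00000508113 was lower in KO cells, with 1.49 FPKM against 4.54 FPKM in WT cells. No transcript of the PLK4 locus had lower bounds above 0 in both groups, so each of them had an interval that reached 0 in at least 1 group.

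Among the mitotic entry and spindle kinases, CDK1 had the largest difference of locus sums in FPKM. At chr10:62538089-62554610 its 8 transcripts summed to 217.2 FPKM in KO cells and 115.5 FPKM in WT cells, a 1.88-fold difference. The anchor ENST00000395284 did not share that direction, with 27.5 FPKM in KO cells and 30.6 FPKM in WT cells, and deposited bounds of 11.9 to 40.8 FPKM in KO cells and 14.04 to 45.7 FPKM in WT cells. The anchor made up 12.7% of the locus sum in KO cells and 26.5% in WT cells.

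The difference at the CDK1 locus lay mainly in ENST00000519760, at 149.4 FPKM in KO cells and 66.2 FPKM in WT cells (p = 0.251 and q = 0.991 in the authors' deposited table). Its deposited bounds ran from 0 to 261.3 FPKM in KO cells and from 0 to 165.8 FPKM in WT cells, so the transcript with the largest part of the CDK1 sum in both groups also had the widest interval. ENST00000519078 stood at 28.4 FPKM in KO cells and 11.9 FPKM in WT cells, and ENST00000448257 at 6.004 FPKM in KO cells and 2.58 FPKM in WT cells.

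AURKA was, with PLK1, a kinase with a p-value under 0.05 in the authors' deposited table. Its locus, chr20:54944445-54967393, summed to 53.7 FPKM in KO cells and 35.1 FPKM in WT cells over 14 transcripts (1.53-fold). The anchor ENST00000312783 was listed at 0 in KO cells and at 1.36 FPKM in WT cells. The main transcript was ENST00000347343, at 25.5 FPKM in KO cells and 12.3 FPKM in WT cells, a 2.07-fold difference with p = 0.0024 and q = 0.427 in the authors' deposited table. Its share of the AURKA sum was 47.6% in KO cells and 35.1% in WT cells. In the tracking table it stood at 26.6 FPKM in KO cells, with bounds of 14.5 and 38.8, and at 12.04 FPKM in WT cells, with bounds of 5.17 and 18.9, so the intervals overlapped. ENST00000456249 stood at 10.8 FPKM in KO cells and 4.39 FPKM in WT cells, and ENST00000422322 at 6.34 FPKM in KO cells and 6.20 FPKM in WT cells. In the tracking table ENST00000422322 turned, with 4.36 FPKM in KO cells and 6.04 FPKM in WT cells. Of 8 AURKA transcripts of at least 1 FPKM with values above 0 in both groups, 7 were higher in KO cells. ENST00000395915 was lower, with 0.106 FPKM in KO cells and 4.58 FPKM in WT cells. Another 2, the anchor and ENST00000371356, were listed at 0 in KO cells, the latter at 1.80 FPKM in WT cells.

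AURKB, the highest locus in wild type cells, showed no difference of that kind. Its 15 transcripts at chr17:8108056-8113918 summed to 209.1 FPKM in KO cells and 216.7 FPKM in WT cells, a log2 fold of -0.05 that became 0.03 with the tracking table. The anchor ENST00000585124 stood at 67.0 FPKM in KO cells and 49.9 FPKM in WT cells, with bounds of 39.4 to 106.8 FPKM in KO cells and 16.3 to 81.2 FPKM in WT cells. ENST00000534871 pointed the other way, with 28.4 FPKM in KO cells and 42.8 FPKM in WT cells (q = 0.991 in the authors' deposited table). ENST00000578753 stood at 56.2 FPKM in KO cells and 54.5 FPKM in WT cells, and ENST00000316199 at 17.4 FPKM in KO cells and 18.8 FPKM in WT cells. In the tracking table ENST00000578753 turned, with 52.3 FPKM in KO cells and 53.3 FPKM in WT cells. Thus transcripts of this locus differed in opposite directions while the sum stayed near a ratio of 1; none of these differences passed the test.

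**Figure D2:**
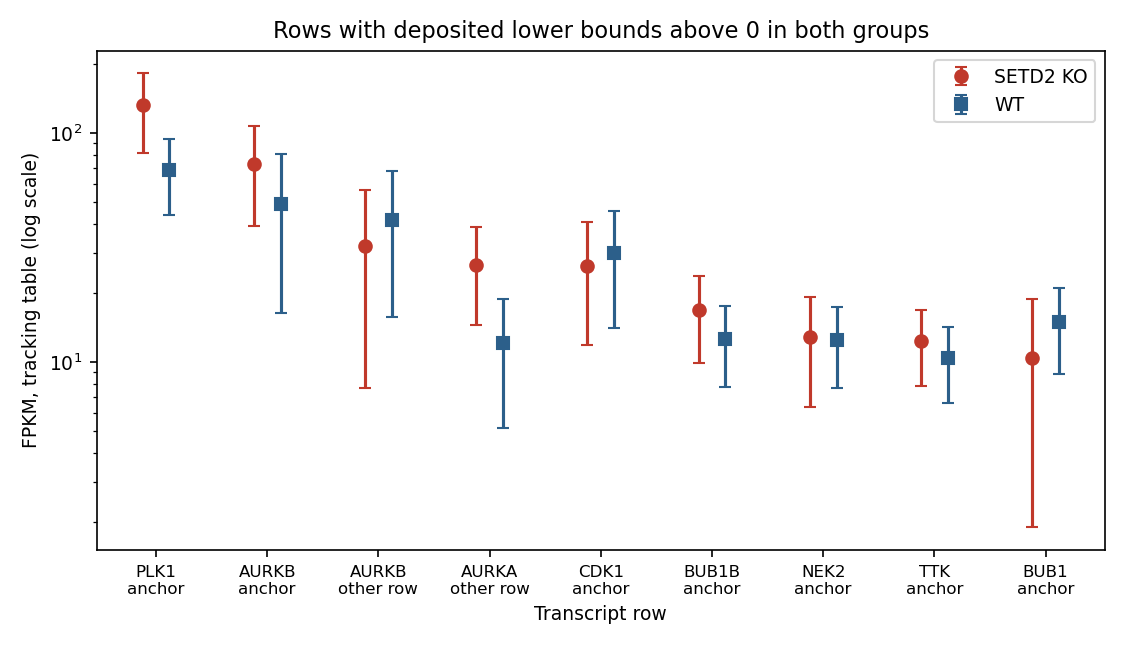
FPKM from the tracking table, on a log axis, for the 9 kinase transcripts of at least 1 FPKM whose deposited lower bound was above 0 in both groups. Red circles are SETD2 knockout cells, blue squares wild type cells, and bars span the deposited lower and upper bounds. The intervals overlap in every pair; those of the PLK1 anchor and of ENST00000347343 at AURKA (marked other row) overlap least.

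Of the checkpoint kinases, BUB1B had the largest locus fold of all 9. Its 37 transcripts at chr15:40453224-40569688 summed to 83.1 FPKM in KO cells and 42.2 FPKM in WT cells (1.97-fold). The anchor ENST00000287598 stood at 18.2 FPKM in KO cells and 13.0 FPKM in WT cells, a 1.40-fold difference with p = 0.0588 in the authors' deposited table. Its bounds were 9.87 to 23.8 FPKM in KO cells and 7.74 to 17.6 FPKM in WT cells. All 7 transcripts of at least 1 FPKM with values above 0 in both groups stood higher in KO cells. The highest was ENST00000559414, at 26.5 FPKM in KO cells and 14.3 FPKM in WT cells, with lower bounds of 0 in both. ENST00000559772 stood at 12.2 FPKM in KO cells and 5.47 FPKM in WT cells, and ENST00000560120 at 8.64 FPKM in KO cells and 1.52 FPKM in WT cells. The locus spans 116.5 kb, and RefSeq lists the readthrough gene BUB1B-PAK6 over BUB1B, so its sum may include transcripts of neighbouring genes, which was not tested.

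At BUB1 the anchor and the rest of the locus differed in direction. The 12 transcripts at chr2:111395275-111435691 summed to 40.1 FPKM in KO cells and 25.3 FPKM in WT cells (1.58-fold). The anchor ENST00000302759 stood at 13.7 FPKM in KO cells and 15.3 FPKM in WT cells, and in the tracking table at 10.4 FPKM in KO cells and 14.9 FPKM in WT cells. It made up 34.1% of the sum in KO cells and 60.4% in WT cells. Without it the locus held 26.4 FPKM in KO cells and 10.02 FPKM in WT cells. ENST00000409311 accounted for much of this, with 7.68 FPKM in KO cells and 0.677 FPKM in WT cells, and so did ENST00000447014, with 5.23 FPKM in KO cells and a listed 0 in WT cells. ENST00000535254 stood at 4.08 FPKM in KO cells and 3.02 FPKM in WT cells, and ENST00000466333 at 4.12 FPKM in KO cells and 2.26 FPKM in WT cells. These transcripts all had a lower bound of 0 in both groups and q-values of 0.991 in the authors' deposited table.

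TTK and NEK2 were the lowest of the 9 loci and nearly level between the groups. TTK, at chr6:80713604-80752244, summed to 14.6 FPKM in KO cells and 12.6 FPKM in WT cells over 10 transcripts (1.15-fold). Its anchor ENST00000369798 carried 94.7% of the sum in KO cells and 84.3% in WT cells, with 13.8 FPKM in KO cells and 10.7 FPKM in WT cells, the largest part that any anchor held. The only other TTK transcript of at least 1 FPKM, ENST00000515751, was listed at 0 in KO cells and at 1.28 FPKM in WT cells. The bounds of the TTK anchor were 7.88 to 16.9 FPKM in KO cells and 6.59 to 14.2 FPKM in WT cells. NEK2, at chr1:211836114-211848960, summed to 19.2 FPKM in KO cells and 17.1 FPKM in WT cells over 5 transcripts (1.12-fold). Its anchor ENST00000366999 stood at 12.1 FPKM in KO cells and 12.8 FPKM in WT cells, and the direction turned in the tracking table, with 12.8 FPKM in KO cells (bounds of 6.36 and 19.3) and 12.5 FPKM in WT cells (bounds of 7.72 and 17.3). The other NEK2 transcripts that reached 1 FPKM in either group were ENST00000462283, at 4.165 FPKM in KO cells and 3.68 FPKM in WT cells, ENST00000540251, at 1.74 FPKM in KO cells and 0.203 FPKM in WT cells, and ENST00000366998, at 1.16 FPKM in KO cells and 0.257 FPKM in WT cells.

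Set side by side, 8 of the 9 locus sums were higher in KO cells, beside 56.1% of all 12467 loci of at least 1 FPKM with values above 0 in both groups. In the tracking table all 9 were higher, beside 58.5%, with AURKB the one that crossed. At least 1.5-fold higher were 5 (BUB1B, CDK1, PLK1, BUB1 and AURKA), beside 13.1% of all loci, and 9.16% of loci of at least 10 FPKM, a level that all 9 kinase loci reached. None was at least 1.5-fold lower, beside 11.1% of all loci. With the tracking table BUB1 (1.44-fold) and AURKA (1.46-fold) lay below that bound and 3 of 9 stayed above it, beside 10.5%. The median log2 fold of the 9 loci was 0.61, and that of all loci 0.06. Loci of one process can move together, so these counts describe the libraries and carry no test.

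**Figure D3:**
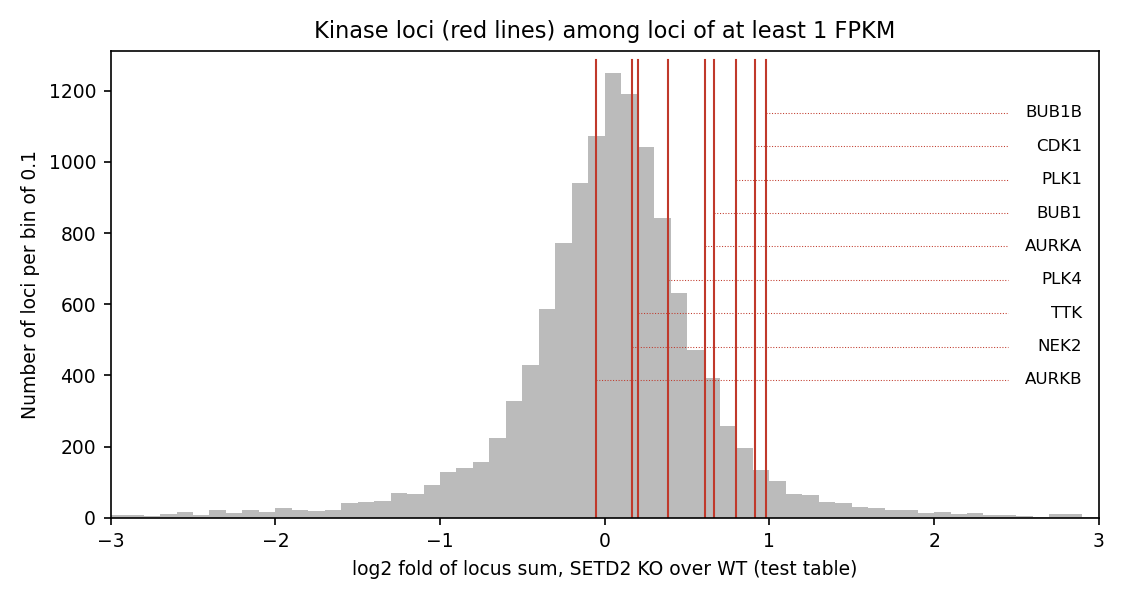
Distribution of the log2 fold of locus sums, SETD2 knockout over wild type, in bins of 0.1 for loci of at least 1 FPKM, with the range from -3 to 3 shown. Red lines mark the 9 kinase loci, which run from -0.05 for AURKB to 0.98 for BUB1B, while the median of all loci is 0.06.

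At the level of transcripts no kinase difference passed the authors' test. Of the 78 tested transcripts 0 had q under 0.05 in the authors' deposited table, where 0.255% of all 85852 tested transcripts did. At an unadjusted p under 0.05 there were 2, the PLK1 anchor and ENST00000347343 at AURKA, which is 2.56% of the 78, beside 2.38% of all tested transcripts in the authors' deposited table. Both were higher in KO cells, a direction that 0.817% of all tested transcripts showed at that p in the authors' deposited table. This direction was picked after the 2 were seen, so that share is no yardstick for them. Of the 57 kinase transcripts with at least 1 FPKM in a group and values above 0 in both, 43 were higher in KO cells, beside 55.4% of all such tested transcripts. Another 6 were listed at 0 in KO cells and 2 in WT cells. Transcripts of a locus share reads, and a transcript can pass the 1 FPKM filter through its higher group alone, so these counts are descriptions.

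Few kinase transcripts had deposited intervals that stayed above 0 in both groups. Of the 65 kinase transcripts of at least 1 FPKM, 9 had lower bounds above 0 in both groups, beside 19.5% of all transcripts of that level, and 7 of these were anchors. These 9 held 36.2% of the summed FPKM of the 9 loci in KO cells and 41.7% in WT cells. Among these 9, 5 were higher in KO cells, beside 49.6% of all tested transcripts so bounded, and 2 were at least 1.5-fold higher, beside 7.4%. The intervals of the groups overlapped for all 65, where 1.1% of all transcripts of that level had intervals that did not overlap.

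The part of the sum in bounded transcripts differed between kinases. At TTK it was 94.7% in KO cells and 84.3% in WT cells, at PLK1 52.1% in KO cells and 54.4% in WT cells, and at CDK1 12.7% in KO cells and 26.5% in WT cells. Summed over bounded transcripts alone, AURKA stood at 2.07-fold and PLK1 at 1.66-fold, BUB1B at 1.40-fold and TTK at 1.29-fold. On the same measure AURKB stood at 1.03-fold, NEK2 at 0.947-fold, CDK1 at 0.899-fold and BUB1 at 0.894-fold. PLK1 and AURKA were thus the kinases whose bounded transcripts and whole locus sums both lay at least 1.5-fold higher in KO cells in the test table.

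**Figure D4:**
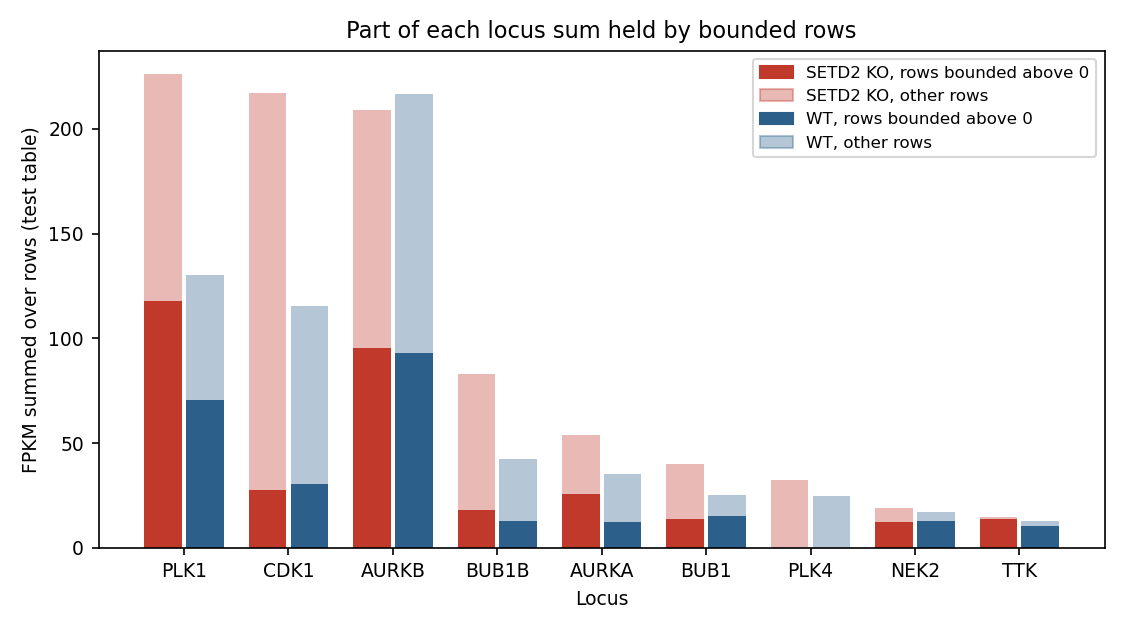
FPKM of each kinase locus in the test table, SETD2 knockout in red left of wild type in blue. The dark part of a bar is the sum over transcripts with deposited lower bounds above 0 in both groups, and the pale part the sum over all others. At CDK1 the dark parts are 27.5 FPKM in KO cells and 30.6 FPKM in WT cells, so the difference of the whole bars lies in the pale parts; at PLK4 there is no dark part.

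The anchors were less uniform in direction than the sums. Of the 7 anchors with at least 1 FPKM and values above 0 in both groups, those of PLK1, BUB1B, AURKB and TTK were higher in KO cells and those of NEK2, CDK1 and BUB1 lower; in the tracking table the NEK2 anchor was higher as well, which made 5 higher and 2 lower. Their median log2 fold was 0.37. The transcripts other than the anchor stood at 2.64-fold for BUB1, 2.23-fold for CDK1, 2.22-fold for BUB1B and 1.83-fold for PLK1, and at 0.852-fold for AURKB. At TTK the transcripts other than the anchor held 0.769 FPKM in KO cells and 1.99 FPKM in WT cells.

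**Figure D5:**
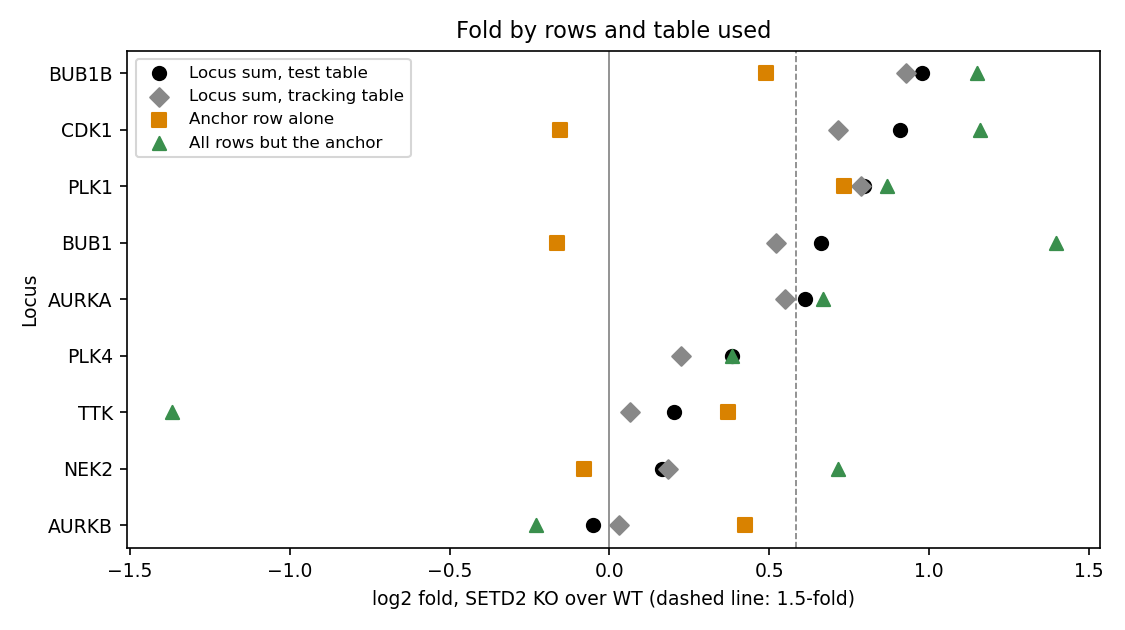
Log2 fold of SETD2 knockout over wild type for each kinase locus, computed from the locus sum in the test table (black circles), the locus sum in the tracking table (grey diamonds), the anchor alone (orange squares) and all transcripts but the anchor (green triangles). The dashed line is 1.5-fold; PLK4 and AURKA have no square because their anchors were listed at 0 in KO cells. For PLK1 all 4 symbols lie past the dashed line, while for CDK1 and BUB1 the squares lie at -0.15 and -0.16.

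By level, the locus sums in KO cells ran PLK1, CDK1, AURKB, BUB1B, AURKA, BUB1, PLK4, NEK2 and TTK from high to low. In the wild type AURKB came first, then PLK1 and CDK1, and the order of the other 6 was the same. With the tracking table the KO order changed: AURKB (216.0 FPKM) lay close below PLK1 (219.2 FPKM) and above CDK1 (184.8 FPKM). FPKM is scaled to length, so levels can be set side by side, but a sum carries no interval. Among the anchors, whose intervals are deposited, neighbours in the order overlapped in both groups from PLK1 down to the seventh anchor. Adjacent places are thus not told apart, while anchors further apart in the order can be. In KO cells the lower bound of PLK1 (81.9 FPKM) lay above the upper bound of CDK1 (40.8 FPKM). In WT cells that of PLK1 (44.0 FPKM) lay above the upper bound of BUB1 (21.0 FPKM). The AURKA anchor lay below the first 7, and the PLK4 anchor, listed at 0 in KO cells, was left out of this order.

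The fold of each kinase locus was set beside those of loci near it. Over the loci within 5 Mb of PLK1 the median log2 fold was -0.01 (48 loci), against 0.80 for PLK1 itself, and 0% of them lay above PLK1. Near BUB1 the median was 0.29 (43 loci) against 0.66 for BUB1 itself, with 18.6% above it, and near CDK1 it was 0.24 (22 loci) against 0.91, with 4.55% above. Both lay among loci that were themselves slightly higher in KO cells, as did most of the kinases below. Around BUB1B the median was 0.19 (77 loci) against 0.98, with 5.19% above, and around AURKA 0.20 (27 loci) against 0.61, with 11.1% above. PLK4 with 0.38 lay among loci with a median of 0.17 (11 loci, 27.3% above), and NEK2 with 0.17 among loci with 0.16 (46 loci, 50% above). TTK with 0.20 had neighbours at -0.02 (23 loci, 30.4% above) and AURKB with -0.05 had neighbours at 0.00 (90 loci, 56.7% above). Among loci that reached 1 FPKM, both neighbours of BUB1B and one of BUB1 had higher folds than the kinase. Those before and after BUB1B had log2 folds of 1.41 and 1.26, both above BUB1B. The locus after BUB1 had 1.58 and the one before it -0.52. Those before and after CDK1 had 0.87 and 0.23, both below CDK1. Beside PLK1 the values were 0.40 before and -0.31 after. The part of the neighbourhood in each kinase's fold was not tested. Relative to these medians PLK1, CDK1 and BUB1B were at least 1.5-fold higher.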

How the data were processed

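Per the submitters' processing notes, TopHat, Cuffdiff and Bowtie 1.1.2 and the build hg19 are named for the series, with no role for any of them; which annotation was used is not stated. The authors deposited a tracking table with an FPKM and its bounds for each transcript in each group, and a test table with both FPKM values, a test statistic (a score), a log2 fold with wild type as numerator, a p-value and a q-value. The unit of the test table's values is not in its header; the wild type values are a near constant multiple of the tracking FPKM. Folds here are knockout over wild type without a pseudocount; the deposited log2 fold with its sign turned differed from them by at most 5.43e-05. The table named for transcripts is identical to that named for genes and was not used, and the 8 ChIP samples, against H3K36me3 and H4K16ac, were not analysed here. The labels do not say whether the libraries of a group are separate cultures, and the deposited p-values may measure technical spread, and the label of 1 wild type RNA library carries a ChIP protocol.

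Locus sums ran over all transcripts of a locus, with 1 added to each start. Loci with a failed estimate were left out of the background and none was a kinase locus. Members and lists were chosen with earlier results of these data known. Named were all anchors, the 3 highest other transcripts of at least 1 FPKM at each locus and any with q at or under 0.05. ENST00000447014 at BUB1, ENST00000395915 and ENST00000371356 at AURKA, and ENST00000578549 at AURKB in the closing section, were named after their values were seen. A list of 35 other mitotic genes could not be used, since 0 transcript IDs matched the tables of gene names. The code for the sums was tested on simulated data with known folds and no noise, which checks the arithmetic alone. Python 3.11.15, pandas 2.3.3, numpy 2.4.6 and matplotlib 3.10.9 were used. Depth per library is unknown, so precision rests on the deposited bounds.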

Additional observations from a re-analysis of the deposited data

Results flagged for a closer look

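At the kinase loci the tracking table gives KO cells a value above 0 for 8 transcripts that the test table puts at 0, while WT cells have 0 such transcripts. Among them are the AURKA anchor ENST00000312783, at 0.358 FPKM in the tracking table, and ENST00000578549 at AURKB, at 3.68 FPKM. Why the tables differ, and which libraries entered each, was not tested.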

How the results depend on the processing

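The count of loci at least 1.5-fold higher in the knockout was 5 as reported. It was 3 with the tracking table, 1 with the anchor alone (PLK1, of 7 with a value), 2 over transcripts with lower bounds above 0 (PLK1 and AURKA, of 8 with a value), 3 relative to loci within 5 Mb and 0 at 2-fold. It was 4 relative to all loci or to the chromosome and 5 with a pseudocount of 1 or 0.1, with transcripts of at least 1 FPKM, with the exact locus of the anchor, or rescaled without mitochondrial and short loci. No locus was 1.5-fold lower under any of these. With the anchor alone, and over bounded transcripts, the log2 fold became -0.15 for CDK1 and -0.16 for BUB1; the cause was not tested. The log2 fold of PLK1 ranged from 0.73 to 0.81 over all 11 alternatives. The median log2 fold of the loci ranged from 0.21 (bounded transcripts) to 0.63 (rescaled). Kinase transcripts called were 0 at q under 0.05 or 0.1 and 2 at an unadjusted p under 0.05. The bounded sums, the 5 Mb window and the 2-fold bound were chosen after seeing the data. No paired analysis was possible because the files hold no values of single libraries, and for the same reason none could be left out. Unknown depth and intervals that reach 0 limit most single transcripts.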
